A study of Mus musculus with 3 samples.

Results

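The cells described here are mesoderm cells of mouse embryos at E8.0 that carry transcripts of both Osr1, a zinc-finger transcription factor of early posterior and lateral mesoderm, and Aldh1a2, the enzyme that makes retinoic acid in the embryo. They were chosen by raw counts of unique molecular identifiers (UMIs, 1 per captured transcript). A member had 1 or more Osr1 UMIs, 2 or more Aldh1a2 UMIs, no UMI of Tcf15 (a somite marker), and no UMI of Wt1 (a marker of the proepicardium and coelomic lining). Its 4 muscle genes Myl7, Tnnt2, Ttn and Myl4 together had to lie under 50 UMIs per 10000. This gave 237 cells of 3202 E8.0 cells, or 7.40%, in a series of 14777 cells.

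Cells were sorted from C57BL/6 embryos carrying Mesp1-Cre, which recombines DNA in nascent mesoderm, and Ai9, a red reporter switched on by Cre. Every embryo also carried a floxed allele of Wls, the gene for the transporter that Wnt-producing cells need to release Wnt proteins. Controls were Wls fl/+, and so lose 1 copy in Cre-active cells, and mutants were Wls fl/fl. The authors' per-cell table names these wildtype and knockout. Only cells with a history of Mesp1-Cre activity entered the sort, so mesoderm without that history and all other germ layers lie outside the data except as contaminants.

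Embryos were tagged with MULTI-seq lipid barcodes and pooled before capture, and all E8.0 cells came from 1 sequencing run. The 6 E8.0 barcodes served as the replicates: Bar24, Bar26 and Bar29 were control, Bar25, Bar27 and Bar28 mutant. Whether a barcode held 1 embryo or several is not given in the sources used here, so a p-value measures the spread between these 6 barcodes. Control Bar29 held cells of both sexes (42.6% called male and 37.7% female by sex-linked genes), and so cells of more than 1 embryo. Member cells had a median of 29550 UMIs, against 26604 in the other E8.0 cells, and 7199555 UMIs in all. The 6 barcodes held 744370 to 1586181 member UMIs each. In bulk sums over cells, fewer expressing cells and less RNA per cell cannot be told apart. A total of 11 10x cell sequences of E8.0 cells recurred in the other runs.

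Retinoic acid made by Aldh1a2 in the lateral and posterior mesoderm sets the boundary between the forming heart and the trunk, and anterior Hox genes are among its direct targets. The posterior second heart field is the splanchnic mesoderm behind the heart tube that supplies the inflow tract and atria. It is known for Osr1, Foxf1, Hoxb1, Nr2f2, Tbx5 and Isl1. The intermediate mesoderm, between the somites and the lateral plate, gives rise to the kidney and gonad and is defined by Lhx1 together with Pax2 and Pax8.

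Because Osr1 and Aldh1a2 counts chose the cells, their levels are a description of the choice. Osr1 (12:9570116-9581500, GRCm38, forward strand) stood at 99.4 ± 13.2 CPM (UMIs of a gene scaled to a common total, from the summed cells of a barcode, mean ± SD, n = 6 barcodes) in members and 12.1 ± 4.56 CPM in the other E8.0 cells. Aldh1a2 (9:71215789-71296243, forward strand) stood at 284 ± 38.9 and 92.5 ± 18.9 CPM. Members held a median of 2 Osr1 UMIs and 7 Aldh1a2 UMIs per cell. Of the 351 E8.0 cells that met both of these counts, 100 were left out for a Tcf15 UMI, 18 for a Wt1 UMI and 3 for muscle transcripts, where a cell can fail more than 1 limit.

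Cells just inside and just outside the limits resembled each other in some genes and not in others. The 34 members with exactly 2 Aldh1a2 UMIs had 83.0 CPM of Lhx1, 152 CPM of Foxf1 and 70.1 CPM of Nr2f1. The 48 cells with exactly 1 Aldh1a2 UMI that otherwise met the rule had 136 CPM of Lhx1, 178 CPM of Foxf1 and 18.3 CPM of Nr2f1. The nuclear receptor Nr2f1 was therefore lower just outside the limit, while the LIM homeobox gene Lhx1 and the splanchnic forkhead gene Foxf1 were not. The 100 cells left out for Tcf15 still had 152 CPM of Lhx1 and 948 CPM of Ifitm1, but 115 CPM of the somite gene Meox1 against 13.8 CPM in the members. The 80 members with exactly 1 Osr1 UMI had 70.8 CPM of Lhx1, against 124 CPM in the 157 with 2 or more. The 187 cells with no Osr1 UMI that otherwise met the rule were close to the members in several genes, with 329 CPM of Nr2f2, 82.6 CPM of Hoxb1 and 181 CPM of Sfrp1 against 407, 91.5 and 199 CPM over all members. They had less Lhx1 and Foxf1, at 45.9 and 129 CPM against 106 and 169 CPM.

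The member cells against the other E8.0 cells is the contrast of the rule, so the following levels carry no test. Among genes at 5 CPM or more in either population, 13.0% were higher in the members in 6 of 6 barcodes and 12.4% lower, which is the background for the counts below. Lhx1 (11:84518284-84525535, reverse strand) had the largest ratio among genes of 20 CPM or more outside the rule, at 109 ± 18.9 CPM in members and 22.3 ± 5.10 CPM in the others. By barcode the member levels of Lhx1 were 121, 85.7 and 103 CPM in controls and 132, 88.7 and 121 CPM in mutants. All 6 lay above every barcode of the other cells, whose highest was 29.1 CPM. Next came Nr2f1, Alx1 (a homeobox gene of head mesenchyme), the unannotated Gm14226, Dach1, Ntng1, and Robo2, a receptor for Slit guidance proteins. Ifitm1 (7:140967221-140969825, forward strand), a membrane protein gene of posterior mesoderm, stood at 906 ± 167 CPM against 322 ± 70.8 CPM.

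Of 13 genes listed for the posterior second heart field, 7 were higher in the members in 6 of 6 barcodes and none was lower in all 6. Foxf1 stood at 168 ± 18.7 CPM in members and 58.7 ± 10.3 CPM in the others. Nr2f2, the atrial and venous nuclear receptor, stood at 399 ± 129 against 146 ± 41.2 CPM. Gata6, a zinc-finger factor of heart and gut mesoderm, stood at 205 ± 50 against 104 ± 18.6 CPM. Hoxb1 stood at 93.5 ± 15.4 against 33.1 ± 5.66 CPM, and Wnt2, a ligand of the inflow region, at 98.4 ± 11.8 against 65.4 ± 16.8 CPM. Isl1 and Tbx5 differed less, at 46.3 ± 10.7 against 38.7 ± 8.79 CPM and 24.5 ± 9.24 against 19.3 ± 4.35 CPM, and each was higher in 4 of 6 barcodes.

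Outside the genes of the rule, the intermediate mesoderm part of the working description rested on Lhx1. Of 11 genes listed for that tissue, Lhx1 was the 1 gene higher in the members in 6 of 6 barcodes. Pax2, a defining factor of the nephric lineage, stood at 1.14 ± 2.35 CPM, with a UMI in 0.844% of members against 1.99% of the other cells. Pax8 stood at 1.86 ± 1.37 CPM, with a UMI in 4.22% of members against 4.96% of the other cells and 3.70% of blood cells, which should lack it. Emx2, Sim1 and Ret lay under 1 CPM, and Wnt9b had no UMI in 237 cells. Gata3 was at 19.7 ± 5.28 CPM against 15.6 ± 2.84 CPM. Sall1 and Eya1 were detected too, at 27.5 ± 6.04 and 8.02 ± 3.47 CPM, below the 34.2 ± 7.31 and 11.2 ± 2.33 CPM of the other cells. The rule holds only E8.0 cells, so later expression of Pax2 and Pax8 was not examined. Lhx1 is also a gene of the early lateral plate, and with Pax2 and Pax8 near 0 the cells are called Osr1 Aldh1a2 cells from here on.

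**Figure D1:**
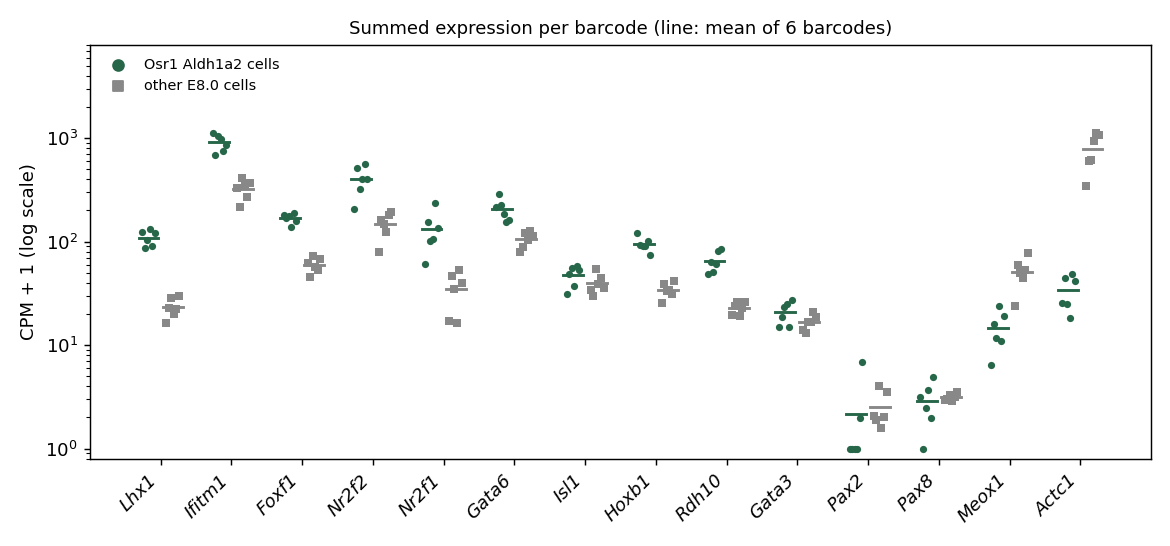
Summed expression of 14 genes in the Osr1 Aldh1a2 cells (green circles) and the other E8.0 cells (grey squares), in CPM + 1 on a log axis, 1 point for each of 6 barcodes with a line at the mean. Lhx1, Ifitm1, Foxf1, Nr2f2, Hoxb1 and Rdh10 lie higher in the Osr1 Aldh1a2 cells in every barcode, Pax2 and Pax8 lie near 0 in both, and Actc1 averages 32.9 CPM against 782 CPM.

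Markers of several other cell types were low. The rule left out cells rich in muscle transcripts and cells with a Tcf15 UMI. Low muscle and somite genes therefore follow in part from the choice of cells. The 12 cardiomyocyte genes not used by the rule summed to 67.2 to 183 CPM in members and to 797 to 2197 CPM in the others, and 10 of 12 were lower in 6 of 6 barcodes. Outside the genes of the rule, the lowest ratios were those of Ankrd1 (2.63 against 212 CPM), Actc1 (32.9 against 782 CPM) and Tnnc1 (6.53 against 202 CPM), all muscle genes. Of 13 paraxial genes, 8 were lower in 6 of 6 barcodes, with Uncx and Mesp2 at 0. Fewer were lower in 6 of 6 on the cranial (5 of 10), proepicardial (2 of 8), neural (2 of 7) and germ cell (1 of 4) lists. On these lists Alx1 was the 1 gene higher in 6 of 6 barcodes, at 60.5 against 15.5 CPM. Endoderm and epithelial genes summed to 4.41 to 11.8 CPM, with Cdh1 and Cldn6 at 0. Blood genes, mainly globins, summed to 1424 to 4777 CPM in members against 5778 to 43247 CPM in the others. Hba-x had a UMI in every member, and 2 members passed 500 globin UMIs per 10000.

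Of 16 genes of retinoic acid synthesis and response, Aldh1a2 not among them, 7 were higher in members in 6 of 6 barcodes and 2 lower. The 7 include Hoxb1, and the 2 are the degrading enzyme Cyp26c1 (0.224 against 1.37 CPM) and the retinol carrier Rbp4 (5.91 against 60.9 CPM). Rdh10, the enzyme of the step before Aldh1a2, stood at 63.6 ± 15.1 CPM in members against 21.9 ± 3.00 CPM. It was not highest in the members among cells near the limits. Cells left out for Tcf15 had 90.2 CPM and those left out for Wt1 86.5 CPM, against 64.6 CPM over all members. The cells with no Osr1 UMI that otherwise met the rule had 38.8 CPM. The retinoid carrier Crabp1, the receptor Rara and the uptake receptor Stra6 were also higher in 6 of 6 barcodes. Cyp26a1, which degrades retinoic acid, stood at 10.5 ± 8.15 against 13.7 ± 3.41 CPM, and the receptor Rarb at 3.72 ± 2.92 against 2.03 ± 0.566 CPM.

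Hox genes divided by paralogue group, the number that follows their order along the body axis. Group 1, which includes Hoxb1, summed to 194 ± 27.5 CPM in members and 74.7 ± 14.0 CPM in the others. Groups 2, 3, 4 and 5 were each higher in members in 6 of 6 barcodes, at 33.7, 14.5, 80.7 and 48.1 CPM against 14.6, 7.33, 43.7 and 21.3 CPM. The order turned at group 6. Groups 6, 8 and 9 were lower in members in 6 of 6 barcodes, with group 9 at 24.9 ± 18.8 against 56.2 ± 27.8 CPM. Groups 7 and 10 were lower in 5 of 6.

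**Figure D2:**
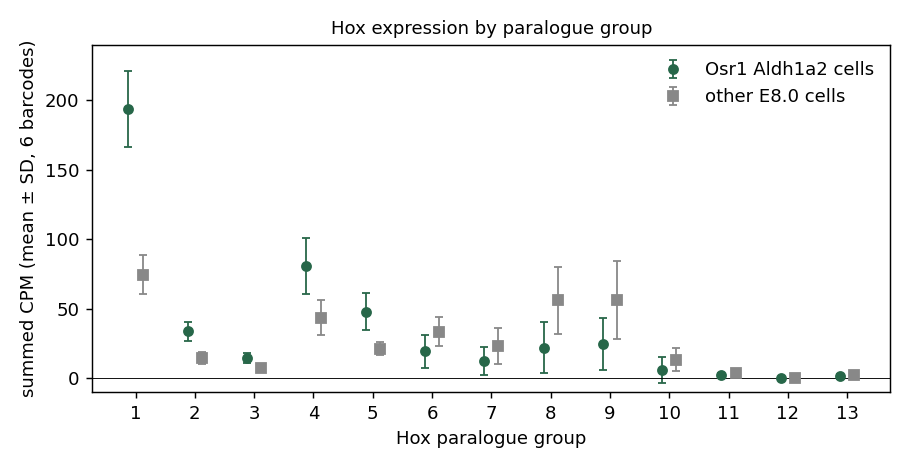
Summed CPM of the Hox genes of each paralogue group, mean ± SD over 6 barcodes, in the Osr1 Aldh1a2 cells (green circles) and the other E8.0 cells (grey squares). Groups 1 to 5 lie higher in the Osr1 Aldh1a2 cells and groups 6 to 10 lower, and group 1 reaches 194 CPM.

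Hedgehog response genes were also high. Gli1, a direct readout of the pathway, stood at 22.3 ± 5.66 CPM in members against 8.41 ± 1.43 CPM, and Ptch1, the receptor that the pathway induces, at 198 ± 21.1 against 102 ± 12.2 CPM. Of 7 listed genes 4 were higher in 6 of 6 barcodes. Of 10 FGF genes 6 were lower in 6 of 6 barcodes and 1, the receptor Fgfr2, was higher (46 ± 6.97 against 22.5 ± 3.70 CPM). The ligand Fgf8 stood at 9.38 ± 4.68 against 34.4 ± 9.01 CPM, and the others that were lower were the response genes Spry1, Spry4, Dusp6, Etv4 and Etv5. Among Wnt modulators, the secreted antagonist Sfrp1 stood at 200 ± 41.8 against 76.6 ± 25.4 CPM. Another, Frzb, was lower, at 5.84 ± 4.00 against 17.3 ± 5.07 CPM, and of 11 antagonists and R-spondins 4 were higher and 2 lower in 6 of 6 barcodes. Of 15 Wnt receptors, Fzd1, Fzd2, Fzd4 and Fzd7 were higher in 6 of 6 barcodes, and Fzd5, Fzd9 and Ror1 lower. Low-oxygen genes were lower, with 9 of 13 lower in 6 of 6 barcodes, and the glucose transporter Slc2a1 at 135 ± 23.0 against 370 ± 58.0 CPM.

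The members differed among themselves in Lhx1. An Lhx1 UMI was found in 145 of 237 members, or 61.2% (exact 95% interval 54.7 to 67.4%, counting error only), against 17.9% of the other cells and 1.71% of blood cells. Cells thinned to 10000 UMIs gave 45.3%, 12.1% and 1.18%. Depth was close, with medians of 30438 UMIs with Lhx1 and 28452 UMIs without. The split and its genes were picked after their values were seen, from the cells that were chosen, and are a description with no test.

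Cells with Lhx1 had more transcripts of several mesenchymal factors. The factors Prrx1, Twist1 and Msx1 stood at 93.8, 553 and 158 CPM with Lhx1 and 36.7, 221 and 49.0 CPM without. Cdx1, a caudal homeobox gene, stood at 49.1 ± 39.9 against 5.10 ± 4.48 CPM. Other genes of posterior or lateral mesoderm varied in their tie to Lhx1 across cells. It was small for Hoxb8 (r = -0.07), Hoxb6 (0.09) and Hand1 (0.03), and larger for Ifitm1 (0.54) and, with negative sign, Gata5 (-0.41). Cells without Lhx1 had more of several heart genes. The secreted Wnt antagonist Sfrp5, a marker of inflow progenitors, stood at 131 ± 53.8 CPM without Lhx1 and 17.6 ± 10.5 CPM with it. Mef2c, a muscle transcription factor, stood at 130 ± 28.8 against 21.3 ± 7.40 CPM, and Gata6 at 299 ± 87.0 against 143 ± 33.5 CPM. Between the sets with and without Lhx1, each gene given in CPM here kept its direction in 6 of 6 barcodes. Isl1 followed in 5 of 6, with a UMI in 72.8% of members without Lhx1 and 40% of those with it.

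**Figure D3:**
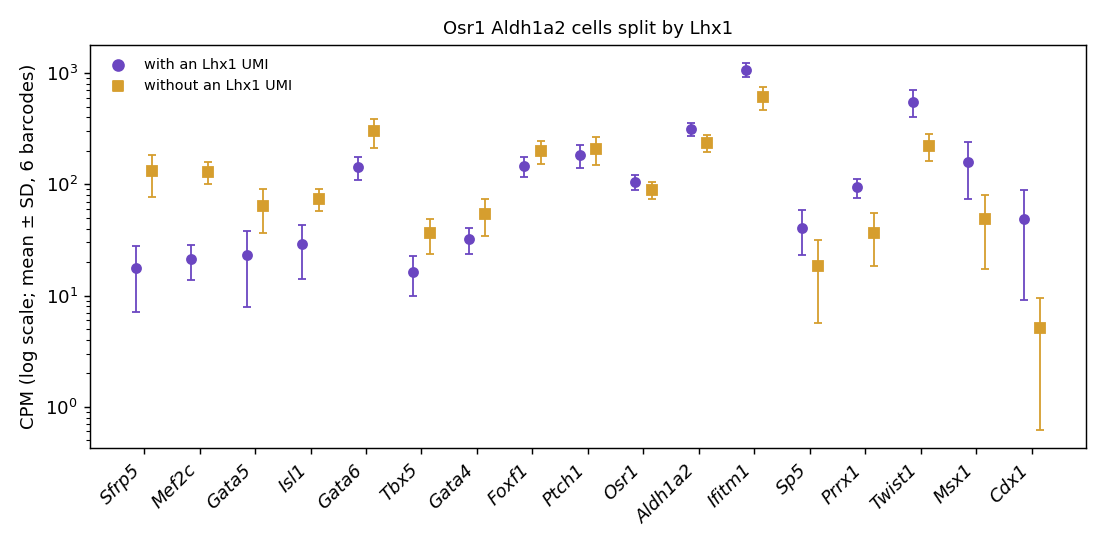
Expression of 17 genes in Osr1 Aldh1a2 cells with an Lhx1 UMI (purple circles) and without one (yellow squares), in CPM on a log axis, mean ± SD over 6 barcodes. Sfrp5 and Mef2c lie higher without Lhx1 (131 and 130 CPM), Msx1 and Cdx1 higher with it (158 and 49.1 CPM), and Foxf1 and Ptch1 differ little.

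Correlations across the 237 cells, centred within each barcode, describe the same split. The values come from shared libraries and share sequencing depth, and carry no p. Of genes with a UMI in 10% or more of members, the highest correlations with Lhx1 included those of Ifitm1 (r = 0.54), Msx1 (0.495) and Prrx1 (0.49), and the most negative was that of Gata6 (-0.46). Within the heart-field pole, Sfrp5 correlated with Mef2c at 0.56 and with Gata6 at 0.56. A second group of genes was less tied to Lhx1: Foxf1 correlated with Ptch1 at 0.64 and with the homeobox gene Hlx at 0.55, while Foxf1 and Lhx1 stood at -0.24. The signs of the Foxf1 pairs with Ptch1 and Hlx were the same in 6 of 6 barcodes. Nr2f1 and Nr2f2 correlated at 0.61.

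A further group of members carried left-side genes. Nodal is the ligand that marks the left lateral plate, and Lefty2 is its feedback inhibitor. A UMI of Nodal or Lefty2 was found in 78 of 237 members, or 32.9%, against 11.4% of the other E8.0 cells and 0.570% of blood cells, whose median depth was 32354 UMIs. Of the 38 members with Nodal, 68.4% also had Lefty2, against 20.1% of the members without Nodal. The share varied between barcodes. It was 42.3%, 21.2% and 46.7% in the controls Bar24, Bar26 and Bar29, and 52.0%, 2.70% and 40.4% in the mutants Bar25, Bar27 and Bar28. Bar27, with 1 of 37 cells (exact 95% interval 0.0684 to 14.2%), stood below the rest, and in its other cells the share was also the lowest, at 4.37%. The groups overlapped (two-sided exact permutation p = 0.8, n = 3 and 3).

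**Figure D4:**
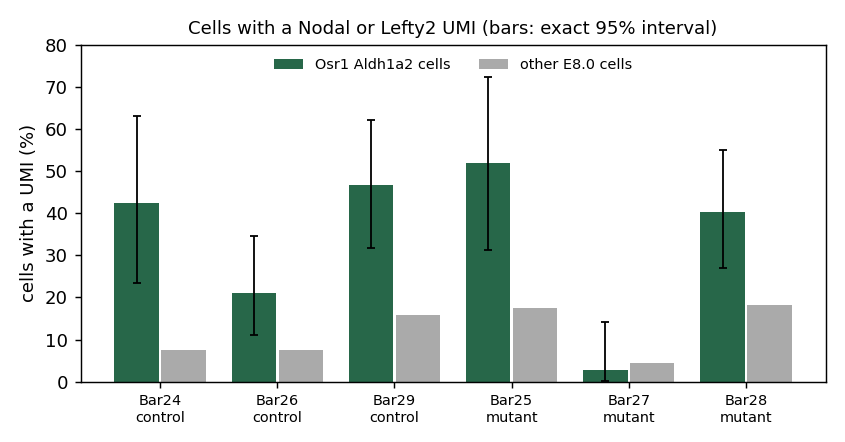
Percent of cells with a Nodal or Lefty2 UMI in each E8.0 barcode, for the Osr1 Aldh1a2 cells (green bars, lines show the exact 95% interval) and the other E8.0 cells (grey bars). The share in the Osr1 Aldh1a2 cells runs from 2.70% in the mutant barcode Bar27 to 52.0% in the mutant barcode Bar25.

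Control Bar24 stood apart in some genes of the extraembryonic and caudal mesoderm, picked after their values were seen. Its members had 148 CPM of Hand1 and 1225 CPM of the imprinted gene Phlda2, whereas the other 5 barcodes had 26.9 to 45 CPM and 214 to 517 CPM. Cdx2 was at 79.5 CPM in Bar24 and at 6.30 to 25.9 CPM elsewhere. Some other genes of the posterior list were not highest there, with Tbx4 and Cdx4 at 17.2 CPM each in Bar24 and at 21.5 and 20.9 CPM in Bar28. Hand1 and Phlda2 varied together between cells (r = 0.56).

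The first comparison of genotypes asked whether loss of Wls changed how many such cells were present. Members made up 7.08%, 8.47% and 7.92% of E8.0 cells in the control barcodes and 6.38%, 5.28% and 9.29% in the mutants. The ranges overlapped, and Bar28, a mutant, was the highest of all. The means were 7.83 ± 0.697% and 6.98 ± 2.07% (SD, n = 3 and 3), a difference of -0.845 percentage points (two-sided exact permutation p = 0.6, where 3 against 3 cannot go below 0.1). Without Bar27 the difference was 0.00628 points and without Bar28 -2.0 points. As a share of cells that were not blood, the means were 9.95 ± 1.73% and 7.52 ± 1.88%, a difference of -2.43 points (two-sided exact permutation p = 0.3, n = 3 and 3). The Lhx1 share also overlapped, at 65.4%, 48.1% and 71.1% in controls and 72.0%, 56.8% and 61.5% in mutants (two-sided exact permutation p = 0.9, n = 3 and 3).

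Wls itself (3:159839672-159938664, forward strand) fell in the mutant members. It stood at 75.2, 57.4 and 39.6 CPM in the control barcodes and 4.03, 2.96 and 3.91 CPM in the mutants. All 3 mutants lay far below all 3 controls. The lowest control, Bar29, was a mix, at 17.8 CPM in its 27 members called male and 82.8 CPM in its 13 called female. The control label is given for the barcode as a whole. Whether it holds for the male cells, which lay below Bar24 and Bar26 and above the mutants, was not tested. The log2 fold change was -3.94 ± 0.35 (SE), with an adjusted p of 0.000354 by edgeR's quasi-likelihood test with Benjamini-Hochberg adjustment. In the other E8.0 cells it was -2.32 ± 0.24, from 58.3 ± 5.38 to 12.4 ± 4.11 CPM. The difference between the populations did not pass (adjusted p = 0.441, edgeR). The matrix counts a gene as a whole, so transcripts that still start from a recombined allele cannot be told apart from those of an intact one.

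Sex was not balanced between the genotypes, and this touches every comparison below. Called by Xist and 4 Y-linked genes, 80.5 to 82.4% of E8.0 cells were male in the 3 mutant barcodes, 1.63% in the controls Bar24 and Bar26, and 42.6% in the control Bar29. The male share thus nearly follows genotype. Only Bar29 lies between, so a fit with this covariate can hardly tell sex and genotype apart. The covariate was the share over all E8.0 cells, while among members 60% of Bar29 was male. With the male share as a covariate no gene passed, and 280 of 9269 had an unadjusted p under 0.05 (edgeR). Wls stood at -2.75 with an adjusted p of 1.00 (edgeR). In that fit the log2 change was -1.23 for Gata5, -1.02 for Rpl34, 1.13 for Rpl34-ps1 and -0.70 for Xist, whose values without the covariate follow. It was -0.32 for Gata6 and -0.23 for Id3, against -0.59 and -0.58 without the covariate. For Id2 it was -0.50 against -0.71, while for Id1 it was larger in size, at -0.96 against -0.67.

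Across the 8843 genes tested in the members, 5 passed an adjusted p of 0.05, which is 0.0565%, and 4 of them were lower in mutants, which is 0.0452%. Besides Wls these were Gata5, Xist, Rpl34 and Rpl34-ps1. At an unadjusted p under 0.05 there were 429 of 8843, a threshold that a share of 0.05 would pass if no gene differed. The 3 mutant barcodes did not overlap the 3 controls for 10.7% of all genes tested, and lay wholly below them for 4.09%.

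Gata5 (2:180325133-180334699, reverse strand), a zinc-finger factor of the early heart and lateral plate, was the 1 developmental regulator among these. It stood at 54.8, 58.6 and 55.4 CPM in the control barcodes and 18.8, 28.6 and 22.2 CPM in the mutants. Every mutant lay at or under 28.6 CPM and every control at or above 54.8 CPM. The log2 fold change was -1.30 ± 0.19 (SE), with an adjusted p of 0.0232 (edgeR). In the other E8.0 cells Gata5 stood at 32.5 ± 6.73 CPM in controls and 34.8 ± 5.79 CPM in mutants, a log2 change of 0.02. The difference of the effects was -1.33 ± 0.23 (adjusted p = 0.0362, edgeR).

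The Gata5 difference was found on both sides of the Lhx1 split. The split divides the same transcripts that gave the call, so these values are a description and no further support. Members with Lhx1 had 31.9, 18.8 and 49.9 CPM in controls and 11, 10.4 and 16.9 CPM in mutants, and members without it 95.6, 93.9 and 69.8 CPM and 40.3, 52.6 and 30.7 CPM. In neither set did the genotypes overlap, and the share of all genes that did so within each set was not computed. In control Bar29, which held both sexes, the 27 members called male had 49.5 CPM of Gata5 (exact Poisson 95% interval 35.2 to 67.7, counting error only) and the 13 called female 59.8 CPM (39.1 to 87.6). In the same cells Wls was at 17.8 CPM (9.72 to 29.8) in male and 82.8 CPM (58.0 to 115) in female cells. Male and female cells come from different embryos. Sex, embryo and any difference of Wls genotype between these embryos therefore cannot be told apart in this contrast. The call of Gata5 passed without Bar27 and was lost when any other barcode was left out, with adjusted p between 0.0642 and 0.280, while its log2 change stayed between -1.46 and -1.21 in all 6 of these fits (edgeR). For a smaller, thinned-rule set, the rule was applied to counts thinned to 10000 UMIs. The full counts of the 128 cells that passed were then fitted. The Gata5 call was also lost in this set (adjusted p = 0.791, log2 change -1.37, edgeR). With Aldh1a2 at 1 or more it was lost too (adjusted p = 0.0692, log2 change -1.34, edgeR).

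For Gata5 and for Id2 and Id3, described next, the 250 bases before the RefSeq start site are shown. Each of the 3 genes stood lower in every mutant barcode than in every control. So did 4.09% of all genes tested, Gata6, Sparc and Trpm2 among them, whose windows are not shown. Id1 has no entry in the table used. Capitals mark GC boxes (GGGCGG on either strand), which 32.7% of all 32851 promoter windows of that length hold. The sequences come from RefSeq on GRCm38.p6 and read 5′ to 3′ on the gene's strand. Gata5 is 2:180334680-180334929 (reverse strand), Id2 is 12:25096093-25096342 (reverse strand) and Id3 is 4:136143572-136143821 (forward strand).
Gata5: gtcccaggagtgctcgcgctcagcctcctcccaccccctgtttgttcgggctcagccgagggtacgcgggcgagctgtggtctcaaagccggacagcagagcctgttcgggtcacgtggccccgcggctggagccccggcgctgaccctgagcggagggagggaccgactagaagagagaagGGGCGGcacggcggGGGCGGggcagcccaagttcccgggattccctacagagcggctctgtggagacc
Id2: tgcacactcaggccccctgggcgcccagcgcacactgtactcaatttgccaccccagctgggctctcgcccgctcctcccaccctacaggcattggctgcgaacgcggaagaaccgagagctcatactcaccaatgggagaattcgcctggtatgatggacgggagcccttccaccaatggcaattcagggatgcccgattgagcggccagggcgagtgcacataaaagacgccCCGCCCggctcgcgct
Id3: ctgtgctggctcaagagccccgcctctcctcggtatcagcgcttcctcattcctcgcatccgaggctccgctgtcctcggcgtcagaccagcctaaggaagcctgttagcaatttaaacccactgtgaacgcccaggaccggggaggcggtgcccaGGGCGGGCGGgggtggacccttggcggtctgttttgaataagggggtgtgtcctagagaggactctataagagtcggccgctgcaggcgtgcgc
Each window holds a GC box: Gata5 and Id3 have 2 and Id2 has 1. A core of the TCF/LEF motif (CTTTGA on either strand), which the nuclear effectors of Wnt signalling bind, occurs in 13.8% of all windows, once in the Gata5 window and in neither Id window.

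The BMP list held the next group. Id1, Id2 and Id3 encode inhibitors of basic helix-loop-helix factors and are immediate targets of BMP signalling. Of the 10 BMP genes tested none passed with edgeR as the main test, 8 had a log2 change below 0, where 50.2% of all genes tested did, and the median was -0.35 against -0.00 over all genes tested. In the other E8.0 cells the median of the same 10 genes was 0.14.

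Id2 stood at 494, 409 and 417 CPM in controls and 210, 312 and 295 CPM in mutants, with a log2 change of -0.71 ± 0.13 (SE) and an adjusted p of 0.149 (edgeR). Id2 passed with DESeq2 (adjusted p = 0.00271), limma (0.0406) and in the thinned-rule set (0.0342, edgeR). Id1 stood at 230, 221 and 261 CPM against 88.7, 173 and 185 CPM, a log2 change of -0.67 ± 0.19 (adjusted p = 0.933, and 0.0355 in the thinned-rule set, edgeR). Id3 stood at 599, 562 and 512 CPM against 216, 457 and 455 CPM, a log2 change of -0.58 ± 0.20 (adjusted p = 0.933, edgeR). For these 3 genes the genotypes did not overlap, as for 10.7% of all genes tested, and Bar25 was the lowest of the mutants each time. Without Bar25 the log2 change was -0.32 for Id3 and -0.44 for Id1. In the other cells Id1 was at 190 ± 35.5 CPM in controls and 215 ± 37.4 CPM in mutants, and the difference of the effects passed for Id1, at -0.81 ± 0.13 (adjusted p = 0.0241, edgeR). For Id2 that difference was -0.73 ± 0.14 (adjusted p = 0.0746, edgeR). The ligand Bmp4 and the inhibitors Smad6 and Smad7 overlapped between genotypes, with log2 changes of -0.39, -0.40 and -0.19.

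**Figure D5:**
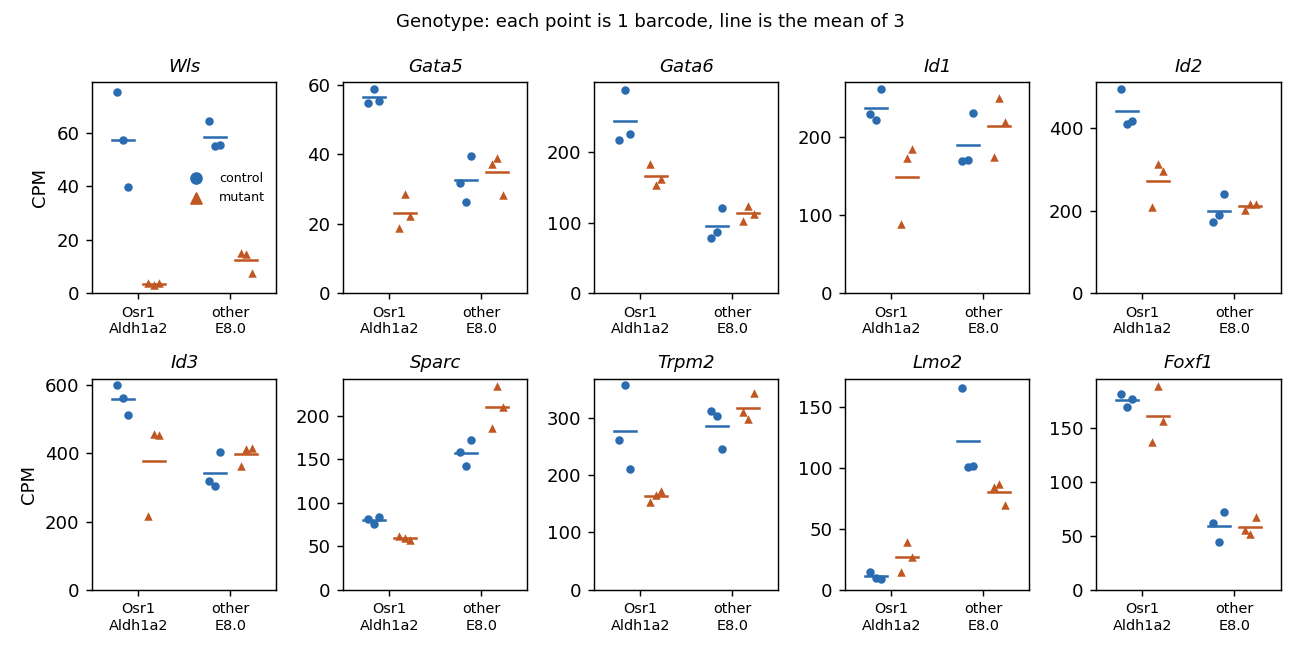
Expression of 10 genes in control (blue circles) and mutant (orange triangles) barcodes, in CPM from 0, for the Osr1 Aldh1a2 cells and for the other E8.0 cells, with a line at the mean of 3. In the Osr1 Aldh1a2 cells the genotypes do not overlap for Wls, Gata5, Gata6, Id1, Id2, Id3, Sparc and Trpm2, and overlap for Lmo2 and Foxf1. Over all 8843 genes tested in these cells, 10.7% did not overlap.

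The genotype effect differed between members and the other E8.0 cells for 5 of 14266 genes tested, or 0.035% (edgeR, barcode as block). Beyond Gata5 and Id1 these were Trpm2, Sparc and Lmo2. Trpm2 (10:77907722-77970563, reverse strand), an ion channel gene, stood at 261, 358 and 211 CPM in control members and 153, 165 and 172 CPM in mutant members. In the other cells it stood at 287 ± 36.2 and 318 ± 23.5 CPM, and the difference of the effects was -0.88 ± 0.12 (adjusted p = 0.00686, edgeR). Trpm2 was uneven within control Bar29, at 301 CPM in male members and 46 CPM in female members. Its genotype effect in members alone was -0.79 and did not pass (adjusted p = 0.238, edgeR), and with the male share as covariate it was 0.15. It was -0.34 in the thinned-rule set, and it passed with DESeq2 (adjusted p = 0.0186) and without Bar29 (0.0328, edgeR). On both sides of the Lhx1 split its genotypes overlapped.

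Sparc (11:55394500-55423183, reverse strand), a matrix glycoprotein gene, was at 81.6, 76.3 and 83.5 CPM in control members and 61.8, 59.1 and 57.4 CPM in mutant members. The other cells had the reverse order, at 158 ± 15 and 210 ± 23.7 CPM, and the difference was -0.85 ± 0.14 (adjusted p = 0.0241, edgeR). Within members alone the genotype effect of Sparc did not pass (log2 change -0.47, adjusted p = 0.933, edgeR). In the cells without Lhx1 it was at 98.6, 89.2 and 134 CPM in controls against 40.3, 38.9 and 73.4 CPM in mutants. In those with Lhx1 the genotypes overlapped, at means of 65.9 and 63.9 CPM, and the difference between these sets was not tested. Lmo2 (2:103957986-103981878, forward strand), a blood and endothelial factor, was at 15, 10.1 and 8.63 CPM in control members and 14.8, 39.4 and 26.7 CPM in mutant members, which overlap. In the other cells it was at 123 ± 37.3 and 80.4 ± 9.30 CPM, and the difference was 1.96 ± 0.29 (adjusted p = 0.0113, edgeR). Blood genes in the other cells had a median log2 change of -0.86 over 6 genes, and their part in the result was not tested. Cardiomyocyte genes in the other cells had a median log2 change of 0.78 over 4 genes against -0.39 in members, and their part in the 5 differences was not tested.

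Of these 5 differences, that of Trpm2 passed without each barcode in turn, with adjusted p of 0.00166 to 0.0303 (edgeR). Those of Gata5, Id1, Sparc and Lmo2 were each lost without Bar24, at adjusted p of 0.131, 0.181, 0.127 and 0.102 (edgeR), with differences of -1.33, -0.76, -0.84 and 1.95. Without Bar26 they stood at 0.178, 0.0837, 0.101 and 0.0303, and without Bar27 at 0.0603, 0.0603, 0.0708 and 0.0431. That of Gata5 was also lost without Bar25 (0.0929) and that of Sparc without Bar28 (0.101). DESeq2 gave 0.111 for both, and edgeR without TMM gave 0.06 for Gata5.

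Of 11 posterior second heart field genes tested none passed, and the median log2 change was -0.09. Foxf1 stood at 182, 169 and 176 CPM in controls and 137, 188 and 156 CPM in mutants, a log2 change of -0.15 ± 0.12. The log2 change was 0.11 ± 0.22 for Isl1, -0.02 ± 0.33 for Tbx5 and 0.12 ± 0.17 for Lhx1. Gata6, a relative of Gata5, had genotypes that did not overlap, at 244 ± 38.9 CPM in controls and 167 ± 15.6 CPM in mutants, and did not pass (log2 change -0.59 ± 0.12, adjusted p = 0.238, edgeR). None of 15 Hox genes and none of 12 retinoic acid genes tested passed. Rdh10 had a log2 change of 0.46 ± 0.17 (adjusted p = 0.933, edgeR), and Aldh1a2, used by the rule, was not tested.

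Canonical Wnt targets did not pass either. Of 11 tested, 9 had a log2 change below 0 (50.2% over all genes tested), with a median of -0.15 in members and 0.16 in the other cells. Axin2, the feedback inhibitor used most often as a readout, stood at 28.7 ± 4.09 and 29.2 ± 6.17 CPM. The transcription factor Lef1 stood at 67.5 ± 15.4 and 53.7 ± 12.2 CPM. Cdx2, a caudal homeobox gene, stood at 79.5, 6.30 and 25.9 CPM in controls and 6.72, 16.8 and 11.7 CPM in mutants, which overlap, and Bar24 set its control mean. No hedgehog gene of 5 tested passed, with a median of -0.02.

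The other calls were not developmental regulators. Xist, which is transcribed from the inactive X chromosome, stood at 81.6, 126 and 43.2 CPM in control members and 14.8, 14.8 and 7.82 CPM in mutant members, and moved with the sex calls above. Its call was lost without Bar24, Bar25, Bar27 or Bar28, at adjusted p of 0.0609, 0.0945, 0.101 and 0.280 (edgeR). The ribosomal protein gene Rpl34 (3:130726831-130730398, reverse strand, on the chromosome of Wls) stood at 1254 ± 55.4 and 594 ± 20.4 CPM. Its pseudogene Rpl34-ps1 (6:71124610-71124963, forward strand) stood at 118 ± 5.66 and 248 ± 13.1 CPM. Rpl34 and its near-identical copy could share reads, which was not tested, so both values are uncertain, and both genes differed in the same way in the other E8.0 cells (-1.21 and 0.83 on the log2 scale). Rps3a1, another ribosomal gene with copies, ranged from 54.8 to 1627 CPM among the controls alone.

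Genes with the next smallest p among those of 20 CPM or more did not pass. Higher in mutant members were Omd (15.9 ± 6.71 to 45.6 ± 3.30 CPM, adjusted p = 0.0694, edgeR), Mbd5, Arhgef40, Myrf and the Y-linked Uty. Lower were Dusp9, a phosphatase gene that restrains MAP kinases (141 ± 19.9 to 80.1 ± 12.6 CPM, adjusted p = 0.102, edgeR), Id2, Trpm2, Gata6 and Rps3a1. In the thinned-rule set the log2 change of Omd went from 1.56 to 0.88 and that of Mbd5 from 1.74 to 0.90. With the male share as covariate that of Omd was 2.47. Omd passed without Bar24 (adjusted p = 0.00798, edgeR), and with DESeq2 Omd and Mbd5 both passed (0.0481 and 0.0489). Dusp9 passed with DESeq2 (0.0412) and with Aldh1a2 at 1 or more (0.0293, edgeR). With the male share as covariate its log2 change went from -0.86 to -0.45, and sex and genotype cannot be told apart for it. Rps3a1 passed without Bar26 (adjusted p = 3.02e-06, edgeR).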

How the data were processed

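Single-cell RNA was measured in Mesp1-Cre lineage cells. Per the labels' descriptions, the authors counted reads with kallisto and bustools (0.46.1, per the submitters' processing notes) and assigned cells to sample barcodes by MULTI-seq. GRCm38 is named in those notes; annotation, strand use and cell filters are not given in the sources used here. The deposited matrix holds raw UMI counts, not normalized, for 51923 genes and 14777 cells, with no cell types. No doublets were removed here; 1 member had over 2 times the members' median UMIs.

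Member counts were summed per barcode and tested with edgeR 4.0.16 (filterByExpr, TMM, quasi-likelihood, adjusted p under 0.05, Benjamini-Hochberg), without the 8 genes of the rule. The test across populations had barcode as block. The SE given with edgeR is the size of the log2 change divided by the square root of its F statistic. DESeq2 1.42.0 and limma 3.58.1 were alternatives. Fits were tested on simulated data. Shares were compared by exact permutation (20 arrangements). Ratios of members to others used a pseudocount of 5 CPM. The members and gene lists were chosen with earlier results of these data known. Named genes: those passing, else the 10 of smallest p at 20 CPM or more, the 25 highest and 12 lowest against other cells, and list genes; genes of the Lhx1 and Nodal splits and of cells near the limits were picked after their values were seen. Positions follow GENCODE M21, whose build is that of the notes.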

Additional observations from a re-analysis of the deposited data

Results flagged for a closer look

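For 5 genes the genotype effect in the Osr1 Aldh1a2 cells differed from that in the other E8.0 cells by the test of the difference itself (edgeR, adjusted p under 0.05, on the log2 scale, members minus others). The differences were -0.88 for Trpm2, 1.96 for Lmo2, -0.85 for Sparc, -0.81 for Id1 and -1.33 for Gata5. Their values by barcode are given above. Sex differed between the genotypes in both populations, and its part in these differences was not tested.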

How the results depend on the processing

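Fits of genotype in the members gave 11 calls with DESeq2, 76 with no filter on low counts, 0 with the male share as covariate, and 4 to 8 when 1 barcode was left out, against 5. Wls kept its direction in all 15 alternatives, from -4.35 to -2.72, and -3.73 to -4.15 without 1 barcode; its call was lost with the male share as covariate (-2.75). The same covariate turned Trpm2 to 0.15 and Uty to -1.15. With no filter Id1, Id2 and Id3 passed (edgeR adjusted p of 1.01e-06, 4.81e-11 and 1.49e-08). The count of genes whose effect differed between populations was 3 with DESeq2, 62 with no filter and 1 to 31 when 1 barcode was left out (31 without Bar29, 1 without Bar24, 13 without Bar27, 8 without Bar25 or Bar28, 3 without Bar26), against 5. The difference in share ran from -2.0 to 0.00628 points when 1 barcode was left out; the last is without Bar27. It was -2.43 among cells that were not blood, against -0.845. With other limits it was -0.0044 (Aldh1a2 1 or more), -0.574 (Aldh1a2 3 or more), -0.446 (Osr1 2 or more) and -1.01 (rule on thinned counts). The causes were not tested. The unfiltered fit of genotype tested 22676 genes against 8843. In it Rps3a1, which ranged widely among the controls alone, had an adjusted p of 4.69e-286 (edgeR). The small adjusted p of that fit, those of Id1, Id2 and Id3 included, are therefore not taken as evidence. No paired analysis was possible because the barcodes of the 2 genotypes share no replicate number. Each barcode held 25 to 52 members, which limits genes of low counts.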
